A study of Haliotis discus hannai with 24 samples.

Results

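Of the 19700 genes listed for the Pacific abalone Haliotis discus hannai, 28 formed the group enriched in the cephalic tentacle. They were chosen from the read counts themselves. Counts were expressed as CPM (the count over the library's total, times 1000000), the median over the 8 libraries of each organ was taken, and a gene was kept if its cephalic tentacle median was at least 10 CPM and the log2 ratio of that median to the higher of the eyestalk and epipodial tentacle medians, with 1 added to each, was at least 2. The first condition held for 3183 genes and both held for 28, so the limit of 150 members was not reached. The higher levels in the cephalic tentacle are therefore the basis of the choice and are given below as a description, without a test.

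The cephalic tentacles of gastropods are head appendages that carry ciliated sensory cells and serve smell, taste by contact and touch. The eyestalks, which stand beside them, carry the eyes. The epipodial tentacles fringe the epipodium, the sensory fold around the foot of abalones, and also respond to touch and to dissolved chemicals.

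Polyadenylated RNA was sequenced from 6 groups of 4 libraries each: left and right cephalic tentacle, left and right eyestalk, and left and right epipodial tentacle. In all 6 groups the animals carry the genotype label "Aquaculture", and the treatment label is the excision of an organ; no other treatment is given. The organ named under treatment is the library's own, except for the libraries labelled left epipodial tentacle, where it is the left cephalic tentacle and where the letters of the titles are those of right organs elsewhere; the side of the epipodial libraries is given here as the tissue label states it. Nothing says how many animals were used or which libraries came from 1 animal, so the p-values reflect the spread among the sequenced libraries, which may be technical. All libraries share 1 batch value.

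The tables pair no identifier with a gene name, a position or a sequence, and no annotation was used here. The 28 genes are therefore called by their identifiers, their functions are not given, and the organs could not be checked against markers of their cell types.

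The libraries differed in depth and in the number of genes with at least 1 count. Totals were 473072 to 1939936 counts in the cephalic tentacle, 1692939 to 4479096 in the eyestalk and 1700095 to 2146464 in the epipodial tentacle. Under 6000 genes were detected in left cephalic tentacle replicates 1 and 2, right cephalic tentacle replicates 3 and 4, left eyestalk replicates 2 and 3 and right eyestalk replicate 1, with 3682 to 5471 genes in these libraries against 7622 to 11197 in the others. Right eyestalk replicate 2 gave 70.8% of its counts to HDSC05049CG00020, which is no member. These 8 libraries stood apart, and results that rest on them are also given for the other 16.

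The 28 genes were moderately expressed in the cephalic tentacle and low elsewhere. The median over the 28 of their median levels was 59.1 CPM in the cephalic tentacle, against 1.84 CPM in eyestalk libraries and 5.40 CPM in the epipodial tentacle. Over the 16 libraries the same medians were 70.7, 3.89 and 5.40 CPM. Per coding length, as FPKM (CPM per kilobase of coding length), the median over the genes was 64.0 in the cephalic tentacle, 1.81 in the eyestalk and 6.62 in the epipodial tentacle, and single genes had cephalic tentacle medians of 9.23 to 1521 FPKM. The log2 ratio that chose them was at least 4 for 3 genes and at least 3 for 9, with a median of 2.71 over the 28. Since whole organs were sequenced, fewer cells of a type and less RNA per cell cannot be told apart.

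Detection differed between the organs in another way than level. Counts were present in all 8 libraries for 18 of the 28 genes in the cephalic tentacle, for 6 in the eyestalk and for 19 in the epipodial tentacle. The cephalic tentacle and the eyestalk had libraries with under 6000 detected genes and the epipodial tentacle had none, which bears on these counts. A median of 0 was found for 7 genes in the eyestalk and for 1 in the epipodial tentacle. The eyestalk median was below the epipodial tentacle median for 24 genes and above it for 3. Genes in general were also lower in the eyestalk when scaled by library totals alone. In that edgeR fit the median log2 fold change, eyestalk over epipodial tentacle, was -0.44 over 7341 genes and -0.62 over the members. No share over all genes is given for the counts in this paragraph, so nothing particular to the members is read from them.

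**Figure D1:**
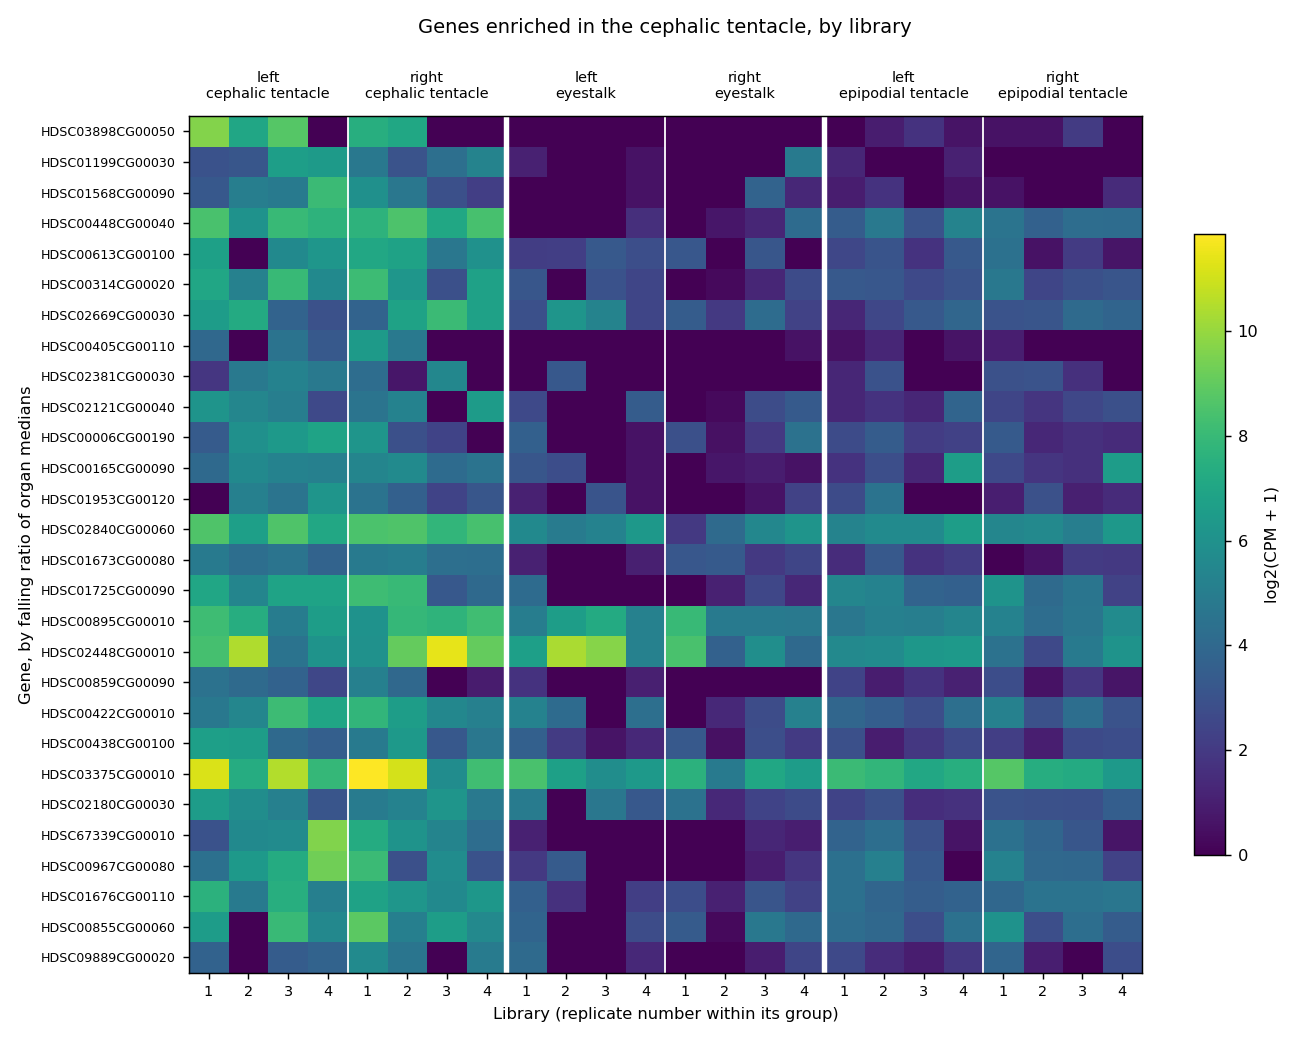
Level of the 28 genes in the 24 libraries, as log2(CPM + 1), with genes ordered by falling ratio of the organ medians. The 8 cephalic tentacle libraries stand on the left, followed by eyestalk and epipodial tentacle. The light colours of the cephalic tentacle are broken by single dark cells, and the genes were at 0 most often in left replicate 2 and right replicates 3 and 4, with 4 or 5 genes each.

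Separation by single libraries was rarer than separation by medians. For 4 genes every cephalic tentacle library exceeded every library of the other organs, against 0.126% of the 3183 genes with at least 10 CPM, or 4 genes in all. The cephalic tentacle libraries all exceeded the eyestalk libraries for 6 of the 28 genes (0.943% of the 3183) and the epipodial tentacle libraries for 7 (0.408% of the 3183). At least 6 of the 8 libraries exceeded all others for 11 genes, a count given without its share of the 3183. Among the 16 libraries, complete separation from both organs was found for 11 members (1.45% of the 3183), from the eyestalk for 17 (7.07%) and from the epipodial tentacle for 13 (2.45%). The choice of members used these contrasts, and nothing is read from the counts or the shares.

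The 4 completely separated genes were HDSC00448CG00040, HDSC02840CG00060, HDSC01673CG00080 and HDSC01676CG00110. All but HDSC01673CG00080 are named after their values were seen. HDSC02840CG00060 had 381, 103, 388 and 138 CPM in left and 365, 383, 220 and 336 CPM in right cephalic tentacles, against 2.95 to 78.0 CPM in eyestalk libraries and 32.2 to 96.5 CPM in the epipodial tentacle. Its lowest cephalic tentacle library thus lay just above its highest epipodial one. HDSC01673CG00080 was far lower, with 12.5 to 31.6 CPM in the cephalic tentacle, 0 to 9.15 CPM in eyestalk libraries and 0 to 8.90 CPM in the epipodial tentacle.

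The largest ratio of medians, 6.43 on the log2 scale, belonged to HDSC03898CG00050. It had 794, 129, 424 and 0 CPM in left and 171, 134, 0 and 0 CPM in right cephalic tentacles, while it had 0 counts in all 8 eyestalk libraries and 0 to 3.22 CPM in the epipodial tentacle. The gene was thus either abundant or not detected in a cephalic tentacle library, and 3 libraries without it included left replicate 4, in which 9335 genes were detected. Its pooled level in the cephalic tentacle was at least 1326-fold higher than in the eyestalk, taking a floor of 3 counts over the 8 eyestalk libraries. Against the epipodial tentacle, with 16 counts, the pooled ratio was 216 (95% interval 133 to 379, counting error only).

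HDSC01199CG00030 followed with a log2 ratio of 4.56 at a much lower level. It had 6.98, 8.09, 100 and 86.2 CPM in left and 26.2, 7.09, 19.0 and 37.8 CPM in right cephalic tentacles. The epipodial libraries held 5 counts in all, whereas 1 eyestalk library, right replicate 4, reached 27.6 CPM and the other 7 had at most 1.15 CPM. The ratio of medians does not see that library: 3 of the 8 cephalic tentacle libraries exceeded it.

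By level per length the highest member was HDSC03375CG00010, with a cephalic tentacle median of 1521 FPKM. It had 2324, 160, 1416 and 239 CPM in left and 3694, 2205, 52.8 and 299 CPM in right cephalic tentacles, against 27.7 to 354 CPM in eyestalk libraries and 82.9 to 417 CPM in the epipodial tentacle. Only 4 of the 8 cephalic tentacle libraries lay above all others, and left replicate 2 and right replicate 3 lay below the epipodial median of 168 CPM. This gene held 34.4% of the 48371 counts of the 28 genes in the cephalic tentacle, and the 5 genes with the most counts held 60.0%.

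HDSC02448CG00010 came next, with a median of 413 FPKM. Its levels were 328, 1381, 21.7 and 66.4 CPM in left and 62.0, 524, 2744 and 536 CPM in right cephalic tentacles, against 102, 1293, 831 and 35.4 CPM in left eyestalks and 350, 11.8, 56.1 and 15.3 CPM in right eyestalks. The epipodial tentacles had 5.10 to 82.5 CPM. The cephalic tentacle and eyestalk ranges of this gene overlapped, and 2 cephalic tentacle libraries exceeded all others. Its median was 426 CPM over all cephalic tentacle libraries and 64.2 CPM over those with at least 6000 detected genes. The gene did not pass the rule over the 16 libraries or over the left libraries alone.

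Just inside the threshold on the log2 ratio stood HDSC00855CG00060, at 2.03, with median CPM of 70.0 in the cephalic tentacle, 7.55 in the eyestalk and 16.3 in the epipodial tentacle. HDSC09889CG00020, at 2.00, had 12.4, 0.476 and 2.34 CPM in the same order of organs. Just outside stood HDSC05224CG00030, at 1.97, with 35.3, 4.19 and 8.27 CPM, and HDSC08071CG00010, at 1.90, with 357, 94.8 and 77.0 CPM. No gap in the ratio separated members from non-members.

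The list itself moved with the libraries used. The rule gave 24 to 34 genes when each library in turn was left out, with 21 to 28 of the members among them, and 18 members stayed in all 24 lists. Over the 16 libraries it gave 80 genes, of which 24 were members. Applied to the left libraries alone it gave 50 genes and to the right libraries alone 41; the 16 genes on both lists, all of them members, were 32% of the left list and 39.0% of the right list.

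Together the 28 genes held 0.403 ± 0.124% of the counts in left and 0.469 ± 0.187% in right cephalic tentacles (SD, n = 4 each). The shares were 0.0957 ± 0.0576% in left and 0.0431 ± 0.0322% in right eyestalks, and 0.0555 ± 0.0115% in left and 0.0543 ± 0.0238% in right epipodial tentacles (SD, n = 4 each). As a share of the library's total, every cephalic tentacle library, at 0.255 to 0.703%, lay above every eyestalk library, at 0.0103 to 0.164%, and every epipodial tentacle library, at 0.0368 to 0.0891%. With scaling factors the cephalic tentacle and eyestalk overlapped: the lowest summed level was 1841 CPM in the cephalic tentacle and the highest 2729 CPM in the eyestalk with TMM factors, against 2542 and 2806 CPM in the same order with RLE factors. The epipodial tentacle, at most 642 CPM with either, stayed below the cephalic tentacle. Without HDSC03375CG00010 the ranges were 0.225 to 0.409%, 0.00752 to 0.154% and 0.0205 to 0.0481% in the same order. Over the 16 libraries the whole set held 0.326 to 0.703% in the cephalic tentacle, 0.0303 to 0.0724% in the eyestalk and 0.0368 to 0.0891% in the epipodial tentacle.

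**Figure D2:**
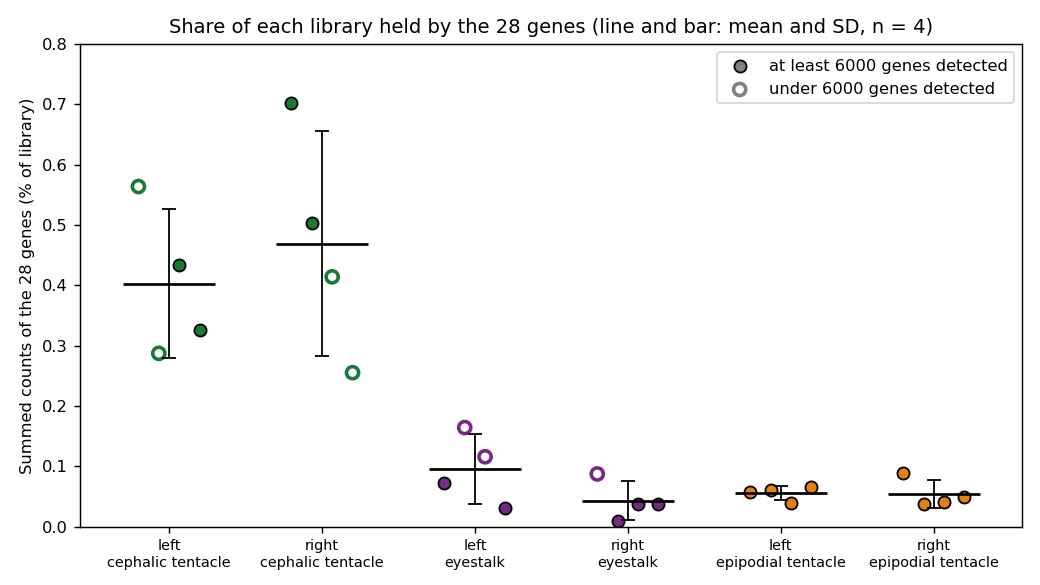
Summed counts of the 28 genes as a percentage of each library's total, for the 6 groups, with a line and bar for the mean and SD (n = 4). Open points mark libraries with under 6000 detected genes. The lowest cephalic tentacle library, at 0.255%, stands above the highest eyestalk library, at 0.164%.

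The sides of an organ were not used in the choice, so the summed share could be tested between them. Left over right, the mean log2 share differed by -0.18 in the cephalic tentacle (two-sided exact permutation test, p = 0.657, adjusted p = 0.771 over the 3 organs). In the eyestalk the difference was 1.27 (exact p = 0.2, adjusted p = 0.6) and in the epipodial tentacle 0.09 (exact p = 0.771, adjusted p = 0.771). Left and right libraries overlapped in all 3 organs. The sizes moved with the scaling and the libraries: the cephalic tentacle gave -0.58 with TMM factors, -0.31 with RLE factors and -0.66 over the 16 libraries, with exact p of 0.314, 0.429 and 0.333, the last being the smallest that 2 against 2 libraries can give. The eyestalk gave 0.75 with either set of factors (exact p = 0.514) and 0.33 over the 16 libraries (exact p = 1), and the epipodial tentacle 0.30 with TMM factors (exact p = 0.286) and 0.19 with RLE factors (exact p = 0.571).

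Among the 8 cephalic tentacle libraries the genes varied widely and not together. For 22 of the 28, the highest library exceeded the lowest over 10-fold or the lowest was 0. The highest library of a gene held 16.7 to 66.9% of its summed CPM, with a median of 32.5%, and over 50% for 4 genes. Spearman's rho between 2 members over these 8 libraries had a median of 0.13 over the 378 pairs and ran from -0.88 to 0.90, reaching at least 0.8 in 18 pairs and at most -0.8 in 4. All pairs share the same libraries and their depths, and 4 of the 8 libraries had under 6000 detected genes. The same values over the 3183 genes are not given, so the spread is not read as particular to the members.

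Zeros gathered in few libraries. Of 224 values of a member in a cephalic tentacle library 15 were 0, and 14 of these fell in the 4 libraries with under 6000 detected genes. Those libraries were set apart by their few genes with a count, so zeros are more frequent there for genes in general. The median over those 4 libraries was above that of the other 4 for 7 members and below it for 21; for 2 members the 4 libraries lay wholly below the others, and for none wholly above. No share over all genes is given for these counts, so nothing particular to the members is read from them. Over the cephalic tentacle libraries, rho between level and the number of detected genes was above 0 for 22 of the 28 members. The same held for 2454 of the 3183 genes with at least 10 CPM. What part detection has in the members' spread was not tested.

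The most even gene was HDSC01673CG00080, whose 8 levels lay between 12.5 and 31.6 CPM. HDSC00165CG00090 was nearly as even, with 15.7, 48.5, 37.1 and 35.0 CPM in left and 41.1, 49.6, 16.9 and 22.0 CPM in right cephalic tentacles. Yet none of its cephalic tentacle libraries exceeded all others, because 2 epipodial libraries stood at 92.3 and 95.9 CPM. At the other end were HDSC03898CG00050, described above, and HDSC00855CG00060, which had 93.3, 0, 260 and 44.9 CPM in left and 469, 34.2, 97.2 and 46.6 CPM in right cephalic tentacles.

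A set of 5 members, named after their values were seen, had its highest level in left cephalic tentacle replicate 4. HDSC67339CG00010 had 776 CPM there, against 6.98 to 154 CPM in the other 7 libraries. HDSC00967CG00080 had 626 CPM against 6.45 to 271 CPM, and HDSC01568CG00090 had 270 CPM against 3.52 to 61.4 CPM. The smaller members of the set were HDSC00006CG00190, with 118 CPM against 0 to 83.5 CPM, and HDSC01953CG00120, with 72.1 CPM against 0 to 34.4 CPM. Over the 8 libraries rho among the 10 pairs of these genes was 0.62 to 0.90; the genes were picked for their high value in 1 of the 8. The same library had 0 counts of HDSC03898CG00050. The library with the most first places was right replicate 1, in which 8 members were highest.

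Another 3 members, also named after their values were seen, went the other way with detection. None of these 3 passed the rule over the 16 libraries or over the left libraries alone. Over the 8 cephalic tentacle libraries rho between level and the number of detected genes was -0.95 for HDSC02448CG00010, -0.81 for HDSC02669CG00030 and -0.62 for HDSC00895CG00010. A rho of -0.5 or below was found for 10.7% of the members and 5.53% of the 3183 genes, and a rho of 0.5 or above for 42.9% of the members and 41.3% of the 3183. HDSC02448CG00010 had 328 to 2744 CPM in the 4 cephalic tentacle libraries with under 6000 detected genes, against 21.7 to 524 CPM in the other 4. The points share libraries, depth and composition, and these rho values are descriptions.

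The same order was seen in the eyestalk, where 3 libraries had under 6000 detected genes. HDSC02448CG00010 had 350 to 1293 CPM in these 3, against 11.8 to 102 CPM in the other 5. HDSC00895CG00010 had 94.5 to 249 CPM against 26.6 to 35.9 CPM, while the ranges of HDSC02669CG00030, 10.04 to 70.4 CPM and 2.90 to 17.1 CPM, overlapped. The 3 genes made up 88.7% and 87.8% of the members' counts in left eyestalk replicates 2 and 3 and 69.5% in right eyestalk replicate 1, the libraries with under 6000 detected genes. In the other 5 eyestalk libraries they made up 12.4 to 40.8%, and in the cephalic tentacle libraries 1.498 to 77.7%. Left eyestalk replicates 2 and 3 also had the highest summed share of the organ, at 0.164% and 0.116%.

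**Figure D3:**
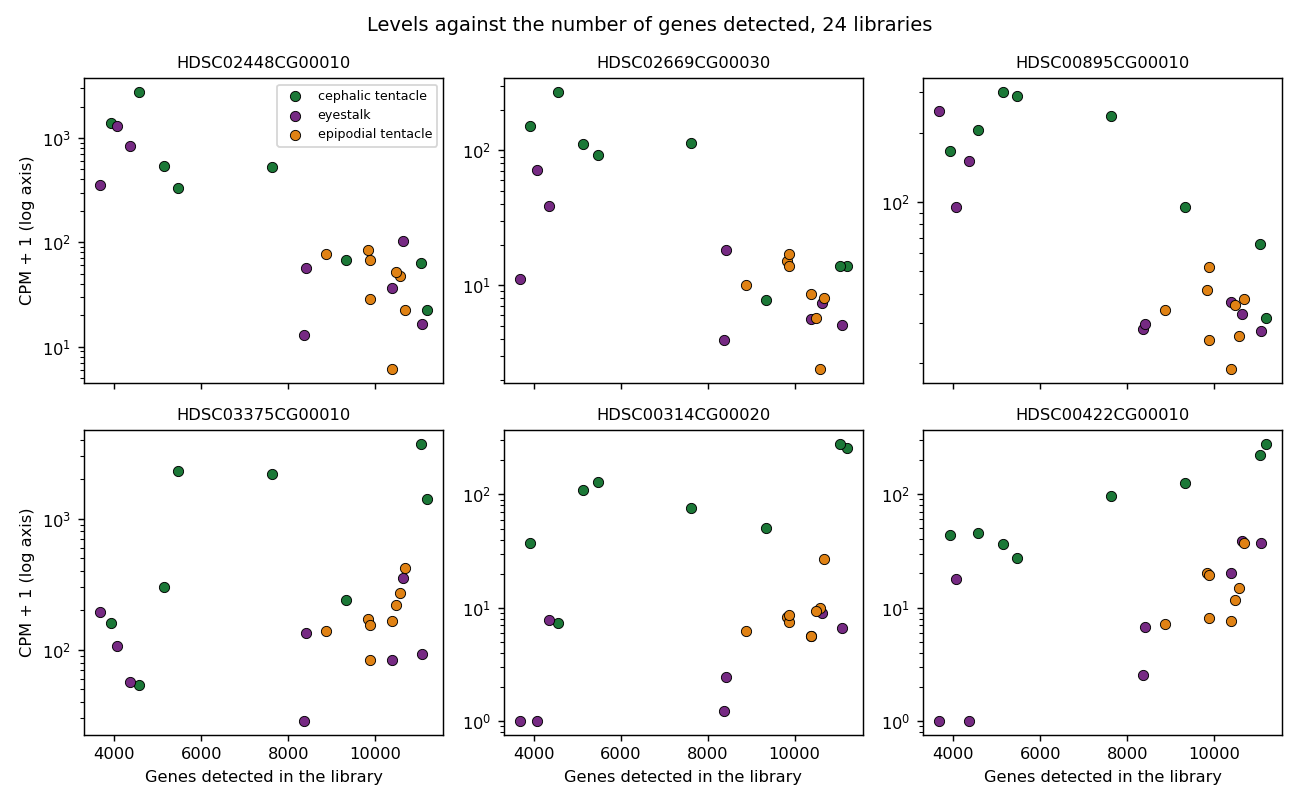
Level (CPM + 1, log axis) of 6 members against the number of genes detected in the library, for 24 libraries coloured by organ. The top panels show the 3 genes with falling levels, among them HDSC02448CG00010 with 2744 CPM in right cephalic tentacle replicate 3; the bottom panels show HDSC03375CG00010 and 2 further members, whose lowest cephalic tentacle values lie at few detected genes.

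Left and right cephalic tentacles were compared gene by gene, the question the study was laid out to ask of each organ. The model was fitted to all 7341 genes that passed a filter on low counts; all 28 members passed it, which their cephalic tentacle libraries alone could bring about. None of the 28 was called at an adjusted p of 0.05 by edgeR's quasi-likelihood test, as was 0% of the 7341 genes. None had an unadjusted p under 0.05 either, against 1.36% of the 7341. DESeq2 and limma also called none.

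The estimates were imprecise. Log2 fold changes, left over right, ran from -1.69 to 2.48 with standard errors of 0.67 to 1.81, and 12 were above 0 and 16 below. Their median was -0.22, against 0.00 for all genes. With another scaling (RLE factors) the median of all genes moved to 0.22 and that of the members to -0.02, with 14 above and 14 below 0, so that the members' median was lower than that of all genes by about the same amount. Over the 16 libraries it was much lower, at -0.98 against 0.12 for all genes, with 8 above and 20 below 0. In that fit, with 2 left and 2 right cephalic tentacle libraries, 4 members had an unadjusted p under 0.05 by edgeR. So had 360 of the 8333 genes tested there, and none was called. Single libraries moved the members' median both ways. Without left cephalic tentacle replicate 1 it was -0.96, against 0.05 for all genes. Without left cephalic tentacle replicate 2 it was 0.13, against 0.12 for all genes, with 15 above and 13 below 0. The 95% intervals excluded an 8-fold difference in either direction for 14 of the 28 genes and a 4-fold difference for 0. In CPM, left and right libraries overlapped for all 28 genes, whereas 0.191% of the 7341 did not overlap.

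The largest estimates toward the left were those of HDSC03898CG00050, with 337 ± 352 CPM in left and 76.3 ± 89.3 CPM in right cephalic tentacles (SD, n = 4 each; log2 fold change 2.48, SE 1.81), and of HDSC00006CG00190, with 67.8 ± 45.3 CPM and 20.4 ± 33.8 CPM (1.88, SE 1.18). Without the 8 libraries that stood apart, the estimate of HDSC03898CG00050 was -0.28. Toward the right they were those of HDSC09889CG00020, with 8.64 ± 5.89 CPM in left and 25.8 ± 20.7 CPM in right cephalic tentacles (-1.69, SE 1.41), and of HDSC02448CG00010, with 449 ± 636 CPM and 966 ± 1205 CPM (-1.69, SE 1.44). All 4 had an adjusted p of 1 by edgeR's quasi-likelihood test.

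**Figure D4:**
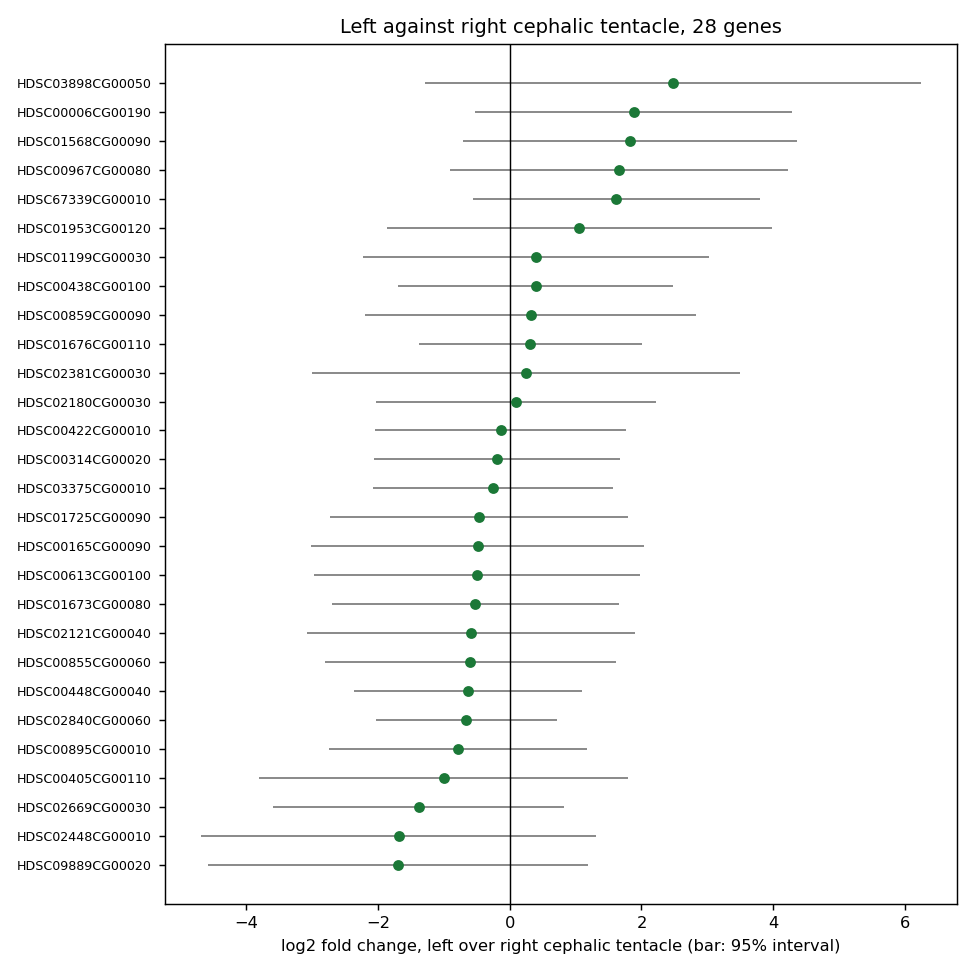
Log2 fold change of the 28 genes, left over right cephalic tentacle, with 95% intervals from the edgeR model, ordered by size. The estimates run from -1.69 to 2.48, and every interval includes 0.

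In the eyestalk, where most members were scarce, left and right gave 0 calls among the 28 by edgeR (0% of the 7341), and 6 had an unadjusted p under 0.05 (21.4%, against 2.47% of the 7341). The members could pass the filter through the cephalic tentacle and 7 had an eyestalk median of 0, so nothing is read from that pair of shares. HDSC01673CG00080 was the only member whose left and right eyestalk libraries did not overlap in CPM (0.45% of the 7341). It had 1.15, 0, 0 and 1.03 CPM in left and 8.27, 9.15, 2.85 and 4.60 CPM in right eyestalks, a log2 fold change of -4.82 (SE 1.30) with an edgeR adjusted p of 1, and of 0.204 to 1 over 31 alternatives. Over these alternatives its log2 fold change was -5.24 to -2.01. The highest right eyestalk values, 8.27 and 9.15 CPM, came from replicates 1 and 2, which are among the 8 libraries that stood apart. In the cephalic tentacle the same gene had 27.9, 18.2, 22.7 and 12.5 CPM on the left and 27.8, 31.6, 19.0 and 18.5 CPM on the right.

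In the epipodial tentacle none of the 28 was called between left and right (0% of the 7341) and 0 had an unadjusted p under 0.05 (0.0545% of the 7341). This fit took the libraries as independent, although left and right epipodial libraries of 1 number correlated at 0.66 to 0.77 in their deviations from the group means. A difference between the sides could therefore be missed. With a replicate block none was called either, and 4 of the 7341 genes had an unadjusted p under 0.05 by edgeR. Left and right libraries overlapped for all 28 genes, while 1.28% of the 7341 did not overlap. The difference between the left-right effects was tested as well. The effect in the cephalic tentacle differed from that in the eyestalk for 0 members by edgeR (0% of the 7341). An unadjusted p under 0.05 was found for 5 members (17.9%, against 2.47%). The limits of the eyestalk comparison, the filter and the medians of 0, apply here too, so nothing is read from these 2 shares. From the effect in the epipodial tentacle it differed for 0 members (0% of the 7341), with 0 at an unadjusted p under 0.05 (0.681%).

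Eyestalk and epipodial tentacle were compared as well. The fit took the libraries as independent. Left and right epipodial libraries of 1 number, however, correlated at 0.66 to 0.77 in their deviations from the group means. The standard errors and p-values of this comparison could therefore be too small, here and for the single genes below. The alternatives other than the replicate block share this limit, and leaving out 1 library keeps the other side of its number. Of the 28, 4 were called between eyestalk and epipodial tentacle by edgeR (14.3%, against 4.97% of the 7341 genes), and all 4 were lower in the eyestalk (3.96% of the 7341 were called lower there). At an unadjusted p under 0.05 there were 12 (42.9%, against 13.1%). Over the members the median log2 fold change, eyestalk over epipodial tentacle, was -0.48, against -0.18 over all genes, with 11 above and 17 below 0. The rule used the medians of both organs as a ceiling and the members could pass the filter through the cephalic tentacle, so these shares and the adjusted p of single genes below are a description, and nothing about the members as a group is read from them. In CPM, 0 members had eyestalk and epipodial libraries that did not overlap (3.17% of the 7341). Without the 8 libraries that stood apart, 1 member, HDSC00448CG00040, was called, against 455 of the 8333 genes tested in that fit.

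HDSC00448CG00040 and HDSC67339CG00010 had the lowest adjusted p; HDSC00448CG00040 and HDSC01725CG00090 are named after their values were seen. HDSC00448CG00040 had 0, 0, 0 and 2.05 CPM in left and 0, 0.67, 1.43 and 16.9 CPM in right eyestalks, against 9.78, 26.7, 7.09 and 38.2 CPM in left and 22.7, 11.7, 17.7 and 17.1 CPM in right epipodial tentacles. Every eyestalk library but right replicate 4 lay below every epipodial one. The log2 fold change was -3.43 (SE 0.71, edgeR adjusted p = 0.00302). The gene was called under all 31 alternatives tried, with adjusted p of 2.63e-05 to 0.0327. Only the replicate block among these used the replicate numbers, and there HDSC00448CG00040 had an edgeR adjusted p of 0.000181. Its cephalic tentacle level was 64.7 to 375 CPM, so the eyestalk was lowest, the epipodial tentacle intermediate and the cephalic tentacle highest.

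HDSC67339CG00010 had at most 1.43 CPM in any eyestalk library. In the epipodial tentacle it had 12.6, 18.7, 6.62 and 0.561 CPM on the left and 20.7, 13.8, 8.06 and 0.588 CPM on the right, so that number 4 of both sides was at the eyestalk level. The log2 fold change was -4.15 (SE 0.94, edgeR adjusted p = 0.00599), with adjusted p of 3.2e-05 to 0.0912 over the alternatives; of 31, the fit without the 8 libraries missed the threshold.

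HDSC00165CG00090 was high in 2 epipodial libraries. It had 95.9 CPM in left and 92.3 CPM in right epipodial tentacle replicate 4, against 1.42 to 6.09 CPM in the other 6 epipodial libraries and 0 to 8.06 CPM in the eyestalk. The log2 fold change was -3.46 (SE 1.00, edgeR adjusted p = 0.0340). It was -1.998 without left epipodial tentacle replicate 4 (adjusted p = 0.315) and -1.93 without right epipodial tentacle replicate 4 (adjusted p = 0.341), and -2.05 in the fit with a replicate block (adjusted p = 0.348). It also missed the threshold without left eyestalk replicate 3 or 4, without right eyestalk replicate 1, 3 or 4, which made 7 of the 24 fits with 1 library left out, and over the 16 libraries (-4.03, adjusted p = 0.182), with RLE factors (adjusted p = 0.0536) and with limma (adjusted p = 0.0915). Of 31 alternatives, 20 called it. Number 4 of the epipodial tentacle was thus above every cephalic tentacle library of this gene on both sides.

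HDSC01725CG00090 had 16.7, 0, 0 and 0 CPM in left and 0, 1.12, 4.76 and 1.53 CPM in right eyestalks, against 41.9, 37.5, 12.8 and 11.2 CPM in left and 66.1, 16.3, 23.1 and 4.12 CPM in right epipodial tentacles. The difference, -2.92 (SE 0.86, edgeR adjusted p = 0.0434), was close to the threshold: 13 of the 24 fits that left out 1 library gave an adjusted p above 0.05, up to 0.109. The libraries concerned were left cephalic tentacle 4, left eyestalk 2, 3 and 4, right eyestalk 1, 2 and 4, and replicates 1, 2 and 3 of both epipodial sides. It was also missed with RLE factors (adjusted p = 0.0572), with library totals alone (adjusted p = 0.0639) and over the 16 libraries (adjusted p = 0.144), so that 15 of 31 alternatives called it.

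**Figure D5:**
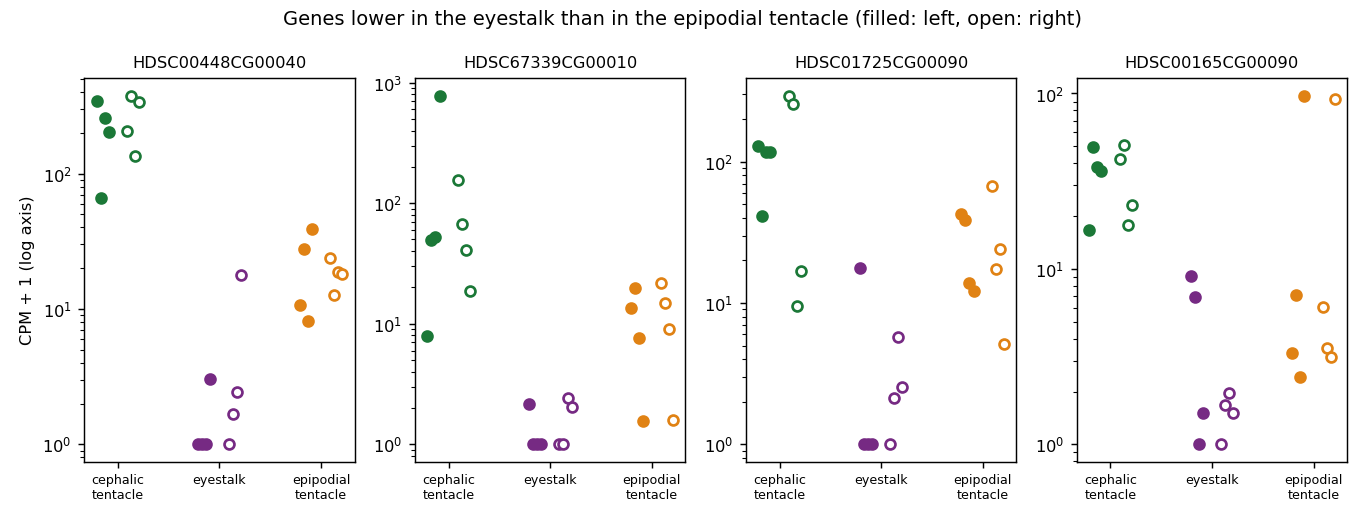
Level (CPM + 1, log axis) of the 4 genes called lower in the eyestalk than in the epipodial tentacle, with cephalic tentacle, eyestalk and epipodial tentacle libraries from left to right; filled points are left and open points right. For HDSC00165CG00090 the 2 highest points of the whole panel are epipodial tentacle libraries, at 95.9 and 92.3 CPM.

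No member was called higher in the eyestalk by edgeR with all libraries, TMM factors and the filter on low counts. HDSC00895CG00010 came closest, with an estimate of 2.33 on the log2 scale (SE 0.71, edgeR adjusted p = 0.0519). It was called in 11 of 31 alternatives, among them RLE factors, no filter, DESeq2 (adjusted p = 0.00369) and 8 of the 24 fits with 1 library left out, and it was -0.22 over the 16 libraries (adjusted p = 0.906). The largest estimates in that direction were 3.57 for HDSC02448CG00010 (SE 1.10, edgeR adjusted p = 0.0693) and 2.76 for HDSC01199CG00030 (SE 1.15, edgeR adjusted p = 0.232). The estimate of HDSC02448CG00010 was called by DESeq2 (adjusted p = 0.0005) and was 0.10 without the 8 libraries that stood apart. That of HDSC01199CG00030 was -0.28 without right eyestalk replicate 4, the library with 27.6 CPM. For HDSC03898CG00050, with 0 counts in the eyestalk and 16 in the epipodial tentacle, the pooled epipodial level was at least 6.13-fold higher (edgeR adjusted p = 0.512).

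In coding length, which the choice did not use, the members were like the other expressed genes. Their median was 837 bases, with a range of 198 to 3195, against a median of 828 for the 3183 genes above 10 CPM in the cephalic tentacle. The 28 identifiers had 28 different first parts (the digits before CG), while up to 9 of the 3183 genes shared 1. Of the other genes above 10 CPM, 21 shared a first part with a member; their median log2 ratio was -0.48, against -0.39 for all 3155 such genes that are not members, the 21 included. Whether a shared first part means a shared position is not given in the tables.

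Of these 21 genes, 1 (4.76%) had a log2 ratio of at least 1, as had 3.26% of the 3155, so the count is near that of the other genes. This gene, HDSC01725CG00100, named after its values were seen, shares its first part with the member HDSC01725CG00090. It had medians of 72.0 CPM in the cephalic tentacle, 0.511 CPM in eyestalk libraries and 28.2 CPM in the epipodial tentacle, the same order of organs as the member, at 116, 0.558 and 19.7 CPM. Its log2 ratio was 1.32, below the threshold. Over 8 libraries of an organ rho between both genes was 0.81 in the cephalic tentacle, 0.71 in the eyestalk and 0.86 in the epipodial tentacle.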

How the data were processed

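Per the labels' protocols, RNA was extracted with TRIzol, and the VAHTS Universal V6 kit was used for the libraries of polyadenylated RNA. Reads were handled with fastp, HISAT2 and HTSeq, per the submitters' processing notes, which give no versions. Build, annotation and strand use were not given in the sources used here; genes that overlap or have near-identical copies are thus uncertain. The authors deposited read counts per gene, which are whole numbers with no normalization, and FPKM values, which the deposited counts, a length and the library total give exactly: the recovered length was whole within 0.001 for 100% of 17233 genes with a count and divisible by 3 for 99.4%, hence "coding length". No identifier is paired with a name, and 0 columns belonged to no labelled library.

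Titles gave the replicate numbers and tissue labels the groups. The members, the lists and the tests were chosen with earlier results of these data known. Genes are named by a rule on ratio, level per length, threshold, left-right and eyestalk-epipodial fold change and evenness; others are said to be named after their values were seen. With edgeR 4.0.16 in R 4.3.3, counts were filtered with filterByExpr (7341 genes left), scaled with TMM factors and fitted with a robust quasi-likelihood model of 6 group means over 24 libraries (18 residual degrees of freedom). P-values were adjusted over all 7341 genes by Benjamini-Hochberg, with a threshold of 0.05. The cephalic tentacle was not tested against the other organs, since the rule used those contrasts; eyestalk against epipodial tentacle, whose medians the rule used as a ceiling, was fitted and is given as a description. Shares were compared by exact permutation in scipy 1.17.1, with 0.0286 the smallest p that 4 against 4 libraries can give. The 95% intervals of the pooled ratios and the floor of 3 counts express counting error alone: PCR copies were not told apart by molecular identifiers. The 95% intervals of the log2 fold changes come from the edgeR model and include the spread among libraries. Alternatives were RLE factors, library totals, no filter, DESeq2 1.42.0, limma 3.58.1 on log2(FPKM + 1), a replicate block, the 16 libraries with at least 6000 detected genes and no gene above 50% of the counts, and each library left out; 4 more were added after seeing the data. The steps were tested on simulated data.

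The replicate numbers were checked by correlating the libraries' deviations from their group means. Left and right epipodial libraries of 1 number passed the bound of 0.1 in every number (0.66 to 0.77), as did the averages of both sides of cephalic tentacle and eyestalk (0.21 to 0.43), cephalic and epipodial tentacle (0.36 to 0.54) and eyestalk and epipodial tentacle (0.36 to 0.55); left and right cephalic tentacles (-0.22 to 0.15) and eyestalks (-0.13 to 0.60) did not.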

Additional observations from a re-analysis of the deposited data

Results flagged for a closer look

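Among 103 groups of 4 libraries, covering 18 named members, 8 held a library whose gap to the nearest other exceeded Dixon's 95% critical value of 0.829. For normally distributed values chance flags about 1 in 20 groups. That rate does not hold where counts are 0: a tested group with all libraries but 1 at 0 is always flagged. This was so for HDSC00448CG00040 and HDSC01725CG00090 in the left eyestalk and for HDSC01199CG00030 in the right eyestalk. In the left cephalic tentacle, replicate 2 was low for HDSC09889CG00020 (0 CPM) and for HDSC01725CG00090 (40.4 CPM). In the left eyestalk, replicate 1 was high for HDSC00006CG00190 (11.5 CPM) and for HDSC01725CG00090 (16.7 CPM), and replicate 4 was high for HDSC00448CG00040 (2.05 CPM). In the right eyestalk, replicate 4 was high for HDSC01199CG00030 (27.6 CPM) and replicate 1 for HDSC00895CG00010 (249 CPM). In the right epipodial tentacle, replicate 1 was high for HDSC00006CG00190 (9.09 CPM). Of these libraries, left cephalic tentacle replicate 2 and right eyestalk replicate 1 had under 6000 detected genes.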

How the results depend on the processing

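The count of members called between left and right, 0 in each organ and for both differences between organs, stayed 0 under every alternative, in each fit with the replicate block and in every fit that left out 1 library; the fits of the 8 cephalic libraries alone, with and without the block, and of the 8 epipodial libraries alone with the block, in which 14 of the 28 members were tested, were chosen after seeing the data and also gave 0. Between eyestalk and epipodial tentacle 4 members were called, against 365 of the 7341 genes. The replicate block gave 3 members, against 479 of the 7341 genes, and HDSC00165CG00090 was lost (edgeR adjusted p = 0.348). The 16 libraries gave 1 member, against 455 of the 8333 genes tested. Leaving out 1 library gave 2 to 5, with 2 without left eyestalk replicate 3 or without right eyestalk replicate 1. The rule gave 28 genes; it gave 47 with means, 9 at a log2 ratio of 3 (9 of them members), 131 at a log2 ratio of 1, 80 with the 16 libraries and 50 with the left libraries alone, and 24 to 34 with 1 library left out. The log2 difference of the summed share, -0.18 in the cephalic tentacle, was 0.24 without the 5 members with the most counts and -0.44 to 0.0482 with 1 library left out (0.0482 without right cephalic tentacle replicate 1); in the epipodial tentacle, 0.09 became -0.16 without those 5 members. Without the 8 libraries that stood apart, HDSC03898CG00050 gave -0.28 between left and right cephalic tentacle. For HDSC01199CG00030 the eyestalk-epipodial estimate was -0.28 to 3.02 with 1 library left out. The causes were not tested. The 7 members with an eyestalk median of 0 were at 0 in most eyestalk libraries, which limits the precision of their left-right estimates in that organ.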
